A study of Homo sapiens with 6 samples.

Results

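The miR-29 family was examined arm by arm in small RNA libraries of MDA-MB-231, a human breast cancer cell line without estrogen receptor, progesterone receptor or HER2 amplification that serves as a model of triple-negative breast cancer (TNBC). The rows were chosen by name, as the mature 3p products hsa-miR-29a-3p, hsa-miR-29b-3p and hsa-miR-29c-3p and the 5p products hsa-miR-29a-5p, hsa-miR-29b-1-5p, hsa-miR-29b-2-5p and hsa-miR-29c-5p (hsa marks the human form and is left out below), which gave 7 of the 1582 miRNAs in the table. All 7 passed the expression filter and were among the 506 miRNAs tested. The control group held 3 libraries of non-transfected cells, and the other group held 3 libraries of cells given RARαS77A, a retinoic acid receptor α in which serine 77 cannot be phosphorylated. The series describes the construct as lentiviral, whereas its sample labels call the cells transfected. Libraries of cells with an empty vector or with wild-type RARα were not analysed here, so delivery and the mutant receptor cannot be told apart. Nothing in the sources says that the replicates came from separate cultures, and p-values then measure only the spread between these libraries, which may be technical.

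A miRNA gene is transcribed into a hairpin precursor, from which Drosha and Dicer release a duplex of a 5p and a 3p strand. One strand, the guide, is kept by an Argonaute protein and pairs with target mRNAs through its seed, bases 2 to 8, whereas the other strand, the passenger, is mostly degraded. The 3p strands are the guides of the miR-29 family. They are known for repressing collagens and other matrix genes, the DNA methyltransferases DNMT3A and DNMT3B, and the anti-apoptotic gene MCL1, and in breast cancer the family has been linked to differentiation and metastasis. mRNA was not measured in these libraries, so nothing is said here of these targets.

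The guide strands are shown because they carry the same seed, in capitals, and differ by few bases outside it, which bears on how reads can be assigned. Sequences are RefSeq's (GRCh38.p14), 5′ to 3′, and were found for all 7 arms.
miR-29a-3p: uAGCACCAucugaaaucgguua
miR-29b-3p: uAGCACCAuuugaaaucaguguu
miR-29c-3p: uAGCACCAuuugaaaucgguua

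Counted from the 5′ end of miR-29a-3p, miR-29c-3p differs from it by a single substitution, C10U. miR-29b-3p differs from miR-29c-3p by G18A, U21G and A22U over their 22 aligned bases. The passenger strands are shown because each comes from a single precursor, which among the guides does not hold for miR-29b-3p. Unlike the guides, they do not share a seed (capitals, bases 2 to 8).
miR-29a-5p: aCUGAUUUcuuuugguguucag
miR-29b-1-5p: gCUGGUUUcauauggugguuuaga
miR-29b-2-5p: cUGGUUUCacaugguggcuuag
miR-29c-5p: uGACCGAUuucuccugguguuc

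Aligned with a shift of 1 base, miR-29b-1-5p and miR-29b-2-5p match at 20 of 22 bases and differ by U11C and U19C, counted from the 5′ end of miR-29b-1-5p.

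The family has 4 precursors in 2 clusters (GRCh38). MIR29A (chr7:130876747-130876810) and MIR29B1 (chr7:130877459-130877539) lie on the minus strand of chromosome 7 with 648 bases between them, and overlap exons of the long non-coding RNA gene LINC-PINT in GENCODE 29. MIR29C (chr1:207801852-207801939) and MIR29B2 (chr1:207802443-207802523) lie on the minus strand of chromosome 1 with 503 bases between them, and overlap exons of their host transcript MIR29B2CHG. miR-29b-3p has the same sequence from MIR29B1 and MIR29B2, and its reads cannot be divided between the clusters.

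The libraries held between 9019266 and 11338580 counts. The 4 miRNAs listed as abundant in MDA-MB-231 (miR-21-5p, miR-100-5p, miR-221-3p and miR-222-3p) summed to between 5476355 and 7047875 counts per library, and the 6 epithelial ones (miR-200 family and miR-205-5p), which mesenchymal cells lack, to between 870 and 1345. The control libraries were not alike in miRNAs of other cells. The 8 pluripotent stem cell miRNAs summed to 3808 counts in control replicate 3 and to between 2789 and 2855 in RARαS77A libraries, whereas control replicates 1 and 2 had 2 and 1. The muscle miRNAs (5 of 7 in the table) summed to 1025 counts in control replicate 1 and to between 62 and 81 elsewhere, and miR-375-3p, an endocrine miRNA, had 870 counts in control replicate 2 and between 19 and 54 elsewhere. The 2 liver miRNAs summed to between 101 and 527 counts and the 8 blood cell miRNAs to between 237 and 515. Their part in the results was not tested. Results are also given against control replicate 3 alone, where this changed a call.

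In RARαS77A cells the abundant guide miR-29a-3p fell, miR-29c-3p and both miR-29b passengers fell further, and the miR-29c passenger rose. With edgeR's quasi-likelihood test, counts scaled by TMM (the trimmed mean of M-values, a factor that corrects for a few abundant miRNAs) and a limit of 0.05 on the Benjamini-Hochberg adjusted p, 4 of the 7 arms were lower and 1 was higher in RARαS77A than in control cells, and 5 were thus called. Over all 506 miRNAs tested, 44.5% were called, 21.1% lower and 23.3% higher. The median log2 fold change was -0.52 over the 7 arms and 0.06 over all miRNAs tested. Levels are given as counts per standard library size with TMM factors (CPM), and log2 fold changes as RARαS77A over control with their standard error (SE). Mature miRNAs are of nearly equal length, and no length term was applied.

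**Figure D1:**
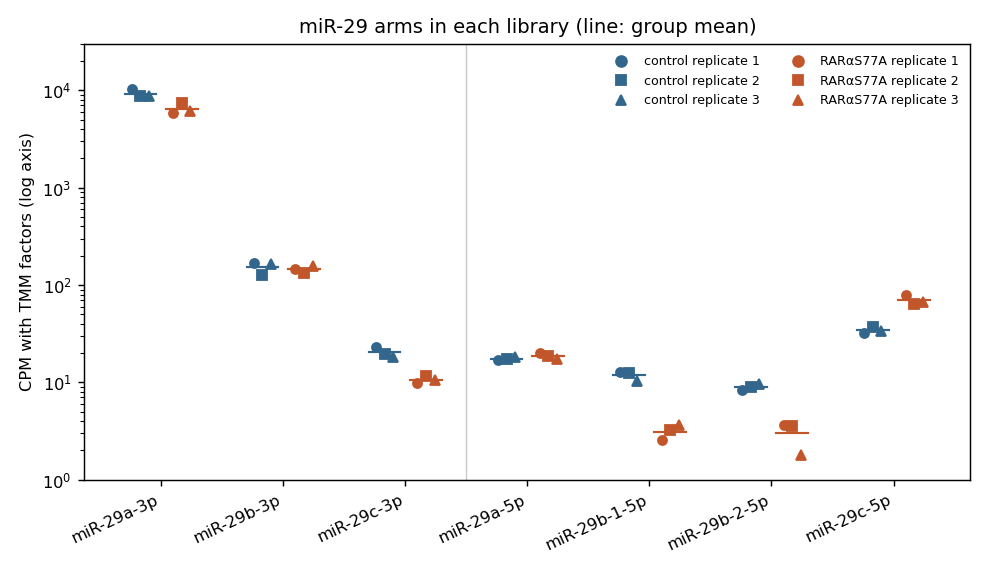
CPM with TMM factors (log axis) of the 7 miR-29 arms, guides on the left and passengers on the right, with 1 point per library and a line at each group mean. The points of the groups are apart for 5 arms and overlap for miR-29b-3p and miR-29a-5p.

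Among the guides, miR-29a-3p held nearly all reads of the family. It was counted 128049, 128371 and 95139 times in the control libraries and 45960, 61764 and 50759 times in the RARαS77A libraries, and it ranked between 11 and 21 among all miRNAs of a library. Its level was 10269, 8726 and 8692 CPM in control replicates 1 to 3 and 5845, 7354 and 6110 CPM in RARαS77A replicates 1 to 3. Every RARαS77A library lay below every control. With n = 3 per group, the mean and SD were 9229 ± 901 CPM in control and 6437 ± 806 CPM in RARαS77A cells, and the log2 fold change was -0.52 (SE 0.12, adjusted p = 0.0113, edgeR). Against control replicate 3 alone it was -0.37 (adjusted p = 0.0630, edgeR), which did not pass the limit.

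miR-29b-3p, the guide that both clusters give, had 169, 126 and 163 CPM in the control libraries and 147, 133 and 158 CPM in the RARαS77A libraries. The groups overlapped, since control replicate 2 was the lowest of all 6 libraries and control replicate 1 the highest. The log2 fold change was -0.06, with a 95% interval from -0.41 to 0.28 (adjusted p = 0.733, edgeR).

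miR-29c-3p, the guide of the chromosome 1 cluster, was counted 289, 285 and 202 times in control and 77, 97 and 88 times in RARαS77A libraries. This corresponds to 23.2, 19.4 and 18.5 CPM and to 9.79, 11.6 and 10.6 CPM, with no overlap of the groups. The log2 fold change was -0.93 (SE 0.18, adjusted p = 0.00423, edgeR). The counts of miR-29c-3p were between 0.212% and 0.226% of those of miR-29a-3p in control libraries and between 0.157% and 0.173% in RARαS77A libraries. As these guides differ by 1 base and the sources used here do not say how many mismatches were allowed, the value of miR-29c-3p is uncertain, and the part of misassigned miR-29a-3p reads in it was not tested.

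Among the passengers, those of miR-29b were the most reduced arms of the family. miR-29b-1-5p, from chromosome 7, was counted 160, 184 and 114 times in control and 20, 27 and 30 times in RARαS77A libraries. Its level fell 3.80-fold, from 11.9 ± 1.31 CPM to 3.12 ± 0.540 CPM, as mean and SD of 3 libraries (log2 fold change -1.93, SE 0.20, adjusted p = 0.000334, edgeR). miR-29b-2-5p, from chromosome 1, was counted 104, 132 and 106 times in control and 29, 30 and 15 times in RARαS77A libraries. It fell 2.97-fold, from 8.34, 8.97 and 9.68 CPM to 3.69, 3.57 and 1.81 CPM (log2 fold change -1.57, SE 0.27, adjusted p = 0.00311, edgeR). For neither arm did the libraries of the groups overlap.

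miR-29c-5p went the other way. It is called the passenger here because the 3p strands are the guides of the family, although it was counted more often than miR-29c-3p in all 6 libraries. miR-29c-5p was counted 406, 551 and 368 times in control and 619, 533 and 559 times in RARαS77A libraries, which is 32.6, 37.5 and 33.6 CPM against 78.7, 63.5 and 67.3 CPM. All RARαS77A libraries lay above all controls, and the log2 fold change was 1.01 (SE 0.16, adjusted p = 0.00171, edgeR). miR-29a-5p had 17.1, 17.2 and 18.1 CPM in control and 20.1, 18.7 and 17.6 CPM in RARαS77A libraries. These groups overlapped, as RARαS77A replicate 3 lay below control replicate 3, and the log2 fold change was 0.11, with a 95% interval from -0.26 to 0.47 (adjusted p = 0.603, edgeR).

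For each of the 5 arms called, an exact two-sided permutation test on log2 CPM gave p = 0.1, the lowest value this test can give for 6 libraries in 2 equal groups. Groups that do not overlap were seen in 58.1% of all miRNAs tested.

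Because small RNA counts are relative, the size of each change depended on the scaling. Scaling to total counts only moved the median over the miRNAs tested from a log2 fold change of 0.06 to -0.51, and the 7 arms moved with it. Under it miR-29a-3p was at -1.09, miR-29c-3p at -1.50, miR-29b-1-5p at -2.50 and miR-29b-2-5p at -2.15, and miR-29b-3p became lower as well (-0.63, adjusted p = 0.00716, edgeR). miR-29c-5p stayed positive at 0.43 but no longer passed the limit (adjusted p = 0.0757, edgeR), and miR-29a-5p turned to -0.47 (adjusted p = 0.0529, edgeR). In all, 5 arms were lower and 0 higher with edgeR, where 42.1% and 10.1% of all miRNAs were. At an unadjusted p under 0.05, 1 arm was higher, and limma on deposited TPM values (log2, with 1 added) also called 1, miR-29c-5p (0.43, adjusted p = 0.0452). On the deposited TPM, which is scaled in the same way, the RARαS77A libraries lay below all controls for 6 arms and above them for miR-29c-5p, against 48.8% and 13.4% of all miRNAs. Relative to the median of all miRNAs, miR-29c-5p was higher and miR-29a-3p, miR-29c-3p and both miR-29b passengers were lower under each of the scalings tried in edgeR.

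**Figure D2:**
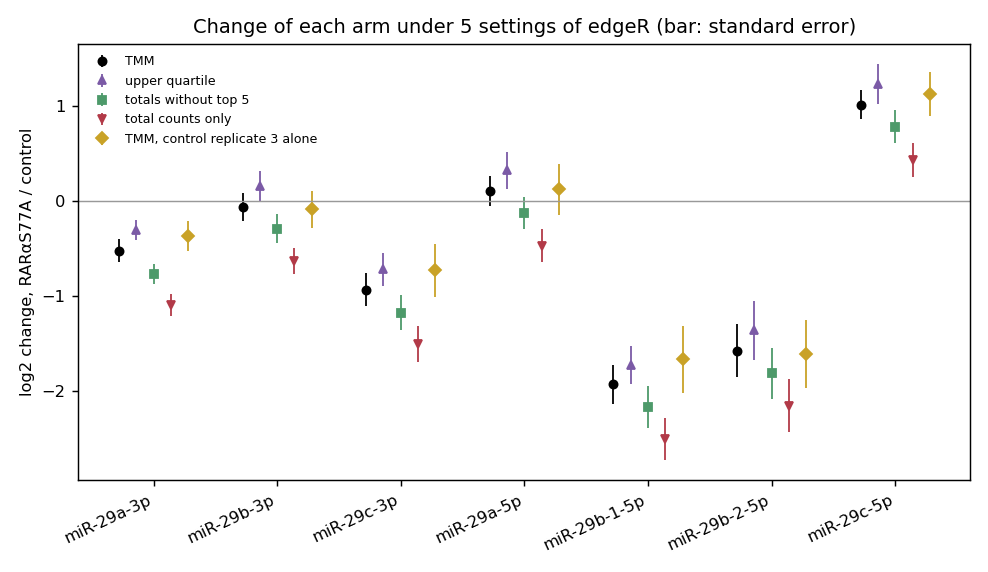
Log2 fold change of each arm (RARαS77A over control, bars are standard errors) under 4 scalings of edgeR and, with TMM, against control replicate 3 alone. The order of the arms is similar in each setting while the zero line moves, so that miR-29b-3p and miR-29a-5p change sign between scalings and miR-29c-5p stays above zero.

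Whether the arms of a precursor changed together was asked with their ratio within a library, in which the scaling factor cancels. Precursors whose 2 arms both passed the filter gave 145 arm pairs, and the interaction of arm and group was tested in edgeR over all of them with a term for every library. All 4 pairs of the miR-29 family were called, 2 with a higher and 2 with a lower ratio of 3p to 5p counts in RARαS77A cells. Such calls were common, with 54.5% of all pairs called, 22.8% higher and 31.7% lower. Adaptor ligation favours some sequences over others, so a ratio compares libraries and does not give the molar ratio of the strands.

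The miR-29c pair changed most in the family and ranked at 16 of 145 by the size of its log2 change. The ratio of miR-29c-3p to miR-29c-5p was 0.712, 0.517 and 0.549 in control and 0.124, 0.182 and 0.157 in RARαS77A libraries. The 3p strand was counted less often than the 5p strand in every library, and its counts carry the uncertainty of assignment given above. The ratio fell from 0.593 ± 0.104 to 0.155 ± 0.0289 (SD, n = 3 each), a change of -1.94 on the log2 scale (SE 0.20, adjusted p = 7.80e-05, edgeR). miR-29c was among the 15 pairs of 145 in which the 5p and the 3p arm were both called with TMM, in opposite directions. Unlike the ratio, these calls depend on the scaling. Under scaling to total counts miR-29c-5p was not called (0.43, adjusted p = 0.0757, edgeR).

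Both miR-29b pairs shifted in the opposite sense, towards the guide. miR-29b-3p pools the reads of both precursors and enters both ratios. Neither is thus the arm ratio of a single precursor, and they are not independent of each other. There were 13.2, 10.04 and 15.6 counts of miR-29b-3p per count of miR-29b-1-5p in control libraries and 57.8, 41.3 and 43.8 in RARαS77A libraries. The log2 change was 1.88 (SE 0.23, adjusted p = 0.000155, edgeR). Per count of miR-29b-2-5p there were 20.2, 14.0 and 16.8 in control and 39.8, 37.1 and 87.5 in RARαS77A libraries, where the last value rests on 15 counts. The log2 change was 1.52 (SE 0.29, adjusted p = 0.00197, edgeR), and against control replicate 3 alone it kept its size at 1.52 without passing the limit (adjusted p = 0.0551, edgeR).

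The miR-29a pair changed least. There were 601, 507 and 481 counts of miR-29a-3p per count of miR-29a-5p in control libraries and 291, 393 and 348 in RARαS77A libraries. The log2 change was -0.63 (SE 0.19, adjusted p = 0.0182, edgeR), at rank 86 of 145 by size. It lost its call without control replicate 1 (-0.53, adjusted p = 0.0817, edgeR), without RARαS77A replicate 1 (-0.51, adjusted p = 0.0707, edgeR) and against control replicate 3 alone (-0.49, adjusted p = 0.189, edgeR). The groups were apart for all 4 pairs, each at p = 0.1 in an exact two-sided permutation test, which is its minimum. Groups were also apart for most of the 145 pairs, so this does not mark the family.

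**Figure D3:**
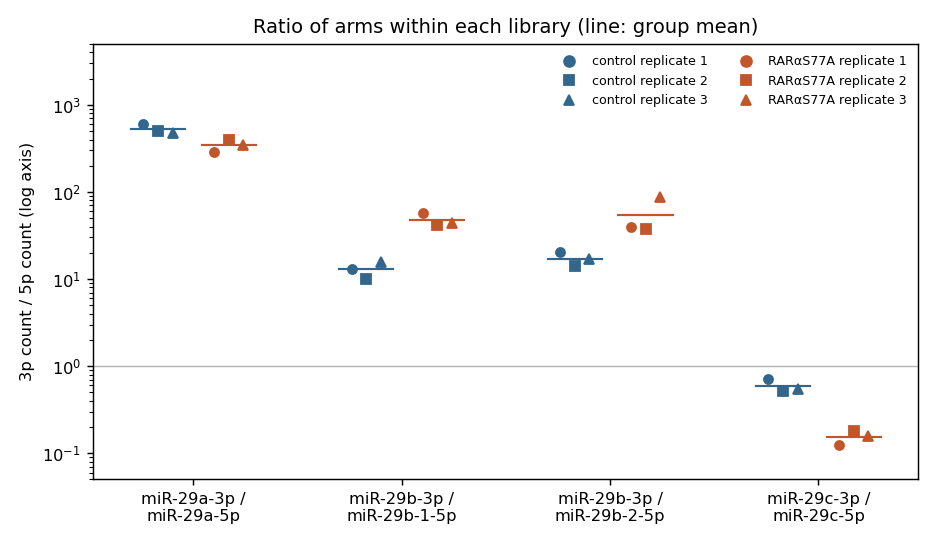
Ratio of 3p to 5p counts (log axis) for the 4 miR-29 pairs, with 1 point per library and a line at each group mean. RARαS77A libraries lie below the controls for miR-29a and miR-29c and above them for both miR-29b pairs, and the miR-29c ratio is under 1 in all 6 libraries.

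**Figure D4:**
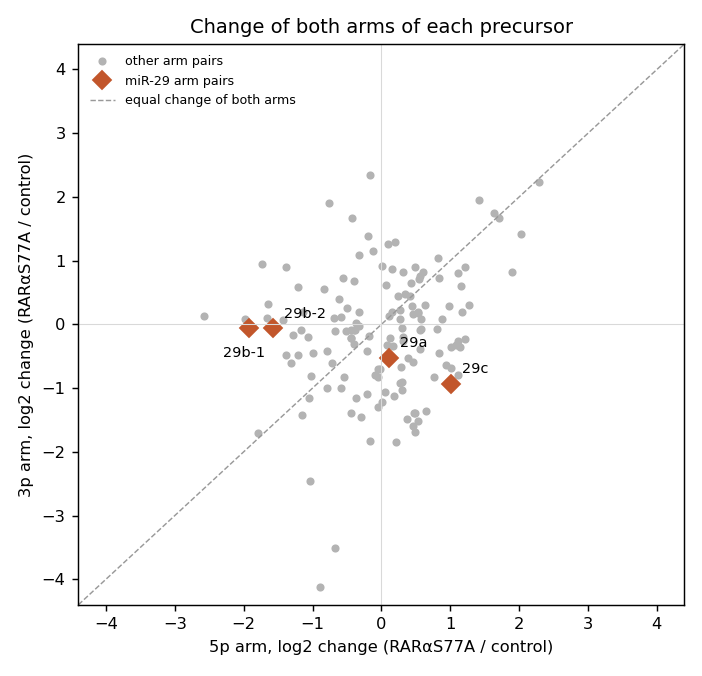
Log2 fold change of the 5p arm against that of the 3p arm for 145 arm pairs (edgeR, TMM), with the miR-29 pairs as diamonds and equal change as a dashed line. The miR-29b pairs lie far to the left with 3p arms near 0, and miR-29c lies on the opposite side of the line at 1.01 and -0.93.

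The clusters were compared with ratios between products of the family in the same library, of which 5 were computed, with permutation p-values adjusted over them. Ratios with miR-29b-3p, which both clusters give, do not separate the clusters, and those with miR-29c-3p carry its uncertainty of assignment. Between the miR-29b passengers no difference was detectable. There were 1.54, 1.39 and 1.08 counts of miR-29b-1-5p (chromosome 7) per count of miR-29b-2-5p (chromosome 1) in control libraries, and 0.690, 0.900 and 2.00 in RARαS77A libraries. These values overlapped, with a log2 change of -0.30 (SE 0.49; exact permutation test, two-sided, p = 0.6, adjusted p = 0.6). The log2 change was 0.02 without RARαS77A replicate 1 and -0.75 without RARαS77A replicate 3, the ends of its range when single libraries were left out.

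For the other passengers of the same clusters the groups were apart, under the same test that could not pass 0.05. The ratio of miR-29a-5p (chromosome 7) to miR-29c-5p (chromosome 1) was 0.525, 0.459 and 0.538 in control and 0.255, 0.295 and 0.261 in RARαS77A libraries, without overlap. The log2 change was -0.91 (SE 0.10; exact permutation test, two-sided, p = 0.1, adjusted p = 0.167). Among the guides, the ratio of miR-29a-3p to miR-29c-3p went from 455 ± 14.5 to 603 ± 30.5 and that of miR-29b-3p to miR-29c-3p from 7.53 ± 1.19 to 13.8 ± 2.01 (SD, n = 3 each), also without overlap (exact permutation test, two-sided, p = 0.1 and adjusted p = 0.167 for each). The ratio of miR-29a-3p to miR-29b-3p went from 61.2 ± 8.06 to 44.6 ± 9.38 (SD, n = 3 each), with overlap (exact permutation test, two-sided, p = 0.2, adjusted p = 0.25). With 3 libraries per group the smallest p of this permutation test is 0.1, and none of these ratios could pass 0.05. Thus MIR29B2 and MIR29C, which lie in the same host gene, gave passenger strands that were called in opposite directions, lower for miR-29b-2-5p and, except under scaling to total counts in edgeR, higher for miR-29c-5p.

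As a pool, the family was dominated by miR-29a-3p in both groups, which took 97.4% ± 0.200 (SD, n = 3) of family counts without and 96.2% ± 0.646 (SD, n = 3) with RARαS77A. The summed guides went from 9402 ± 918 to 6593 ± 796 CPM, and from 11450 ± 654 to 5403 ± 655 on the deposited TPM (SD, n = 3 each). The summed passengers went from 72.9 ± 2.83 to 94.8 ± 8.94 CPM, but from 89.2 ± 8.71 to 77.6 ± 6.65 on the deposited TPM (SD, n = 3 each), so that their direction depended on the scaling. As a share of family counts, which does not, the summed passengers were higher in each RARαS77A library than in each control, at 0.775% ± 0.0924 (SD, n = 3) in control and 1.44% ± 0.274 (SD, n = 3) in RARαS77A cells. The 4 strands did not rise together. Mean shares of family counts went from 0.368% to 1.06% for miR-29c-5p and from 0.186% to 0.284% for miR-29a-5p. For miR-29b-1-5p they went from 0.126% to 0.0469%, and for miR-29b-2-5p from 0.0959% to 0.0453%.

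The make-up of the passenger pool differed between the groups. miR-29c-5p took 46.0%, 49.2% and 46.8% of passenger counts in control libraries and 74.9%, 71.4% and 74.5% in RARαS77A libraries. miR-29b-1-5p took 16.4% ± 1.81 and 3.35% ± 0.823, and miR-29b-2-5p 12.3% ± 0.984 and 3.18% ± 1.05, respectively (SD, n = 3 each). miR-29a-5p, at 24.0% ± 1.31 and 19.9% ± 1.01 (SD, n = 3 each), was lower in each RARαS77A library than in each control. No test was made of these sums and shares, which are descriptions.

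**Figure D5:**
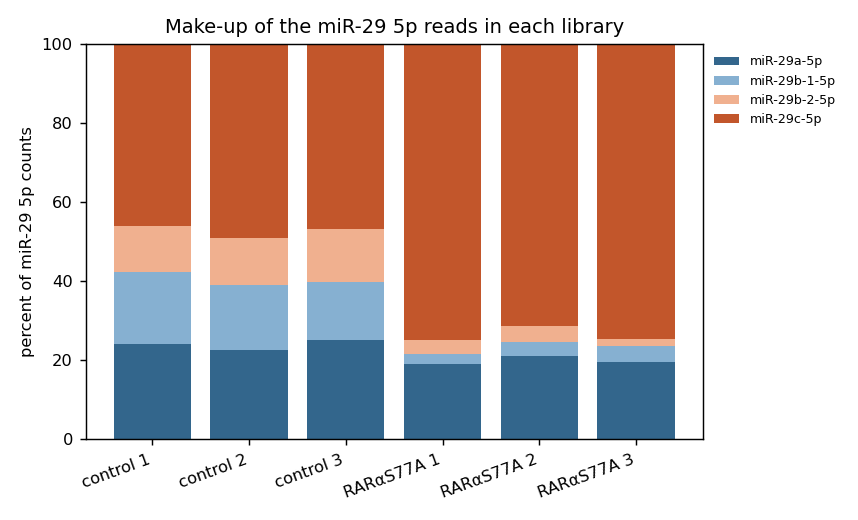
Percent of all miR-29 5p counts taken by each passenger strand in each of the 6 libraries, as stacked bars. miR-29c-5p lies between 46.0% and 49.2% in control and between 71.4% and 74.9% in RARαS77A libraries, while both miR-29b strands shrink.

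Other miRNAs that could bind the same sites were searched by seed among 2370 human mature miRNAs. Only the 3 miR-29 guides had AGCACCA at bases 2 to 8. Shifted by 1 base, GCACCAU occurs at the same place in miR-767-5p and UAGCACC in miR-5682. miR-767-5p had between 2 and 3 counts in control and between 0 and 1 in RARαS77A libraries and did not pass the expression filter. miR-5682 was not among the miRNAs counted in these data.

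Other miRNAs known to target DNA methyltransferases (DNMT1 included), MCL1 or collagens were taken from lists. Of 8 miRNAs known to target DNA methyltransferases, 3 were higher and 1 was lower (edgeR, TMM), where 23.3% and 21.1% of all 506 miRNAs were. Under scaling to total counts 2 were higher and 2 lower, against 10.1% and 42.1% of all miRNAs. The median log2 fold change with TMM was 0.32 over these 8, -0.73 over the 6 of the MCL1 list and 0.06 over all miRNAs tested. miR-148a-3p, which targets DNMT1 and DNMT3B, was higher under both scalings, with log2 fold changes of 1.76 (adjusted p = 0.000269, edgeR) and 1.18. miR-126-3p, a regulator of DNMT1, was also higher under both, at 1.26 (adjusted p = 0.000237, edgeR) and 0.69. miR-148b-3p, with the same seed as miR-148a-3p, was at -0.07 (adjusted p = 0.725, edgeR), but lower under scaling to total counts (-0.64). miR-101-3p, which is in this list and in that of MCL1, was at 0.43 (adjusted p = 0.0987, edgeR) and at -0.14 under scaling to total counts, without a call in either. Of 6 miRNAs known to target MCL1, 4 were lower and 1 was higher (edgeR, TMM), against 21.1% and 23.3% of all miRNAs. The counts were 4 and 0 under scaling to total counts in edgeR, against 42.1% and 10.1% of all miRNAs, where 1 of the 6 was higher at an unadjusted p under 0.05 and 1 was called higher by limma on the deposited TPM. miR-125b-5p fell with a log2 fold change of -0.79 and miR-16-5p with -0.68 (adjusted p = 0.00171 for each, edgeR). miR-15b-5p fell as well, at -1.06 (adjusted p = 0.00313, edgeR). It belongs to the same family as miR-16-5p, so the lower miRNAs of this list are not all independent of each other. miR-193b-3p, named because it was the 1 that was higher, rose, at 1.04 (adjusted p = 0.00171, edgeR), but was at 0.46 without a call under scaling to total counts. Of 4 miRNAs known to target collagens, 2 passed the expression filter. miR-26a-5p was higher at 0.46 (adjusted p = 0.0175, edgeR), but at -0.11 under scaling to total counts without a call, and let-7g-5p was at 0.07 (adjusted p = 0.683, edgeR), but lower under scaling to total counts (-0.51).

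The miRNAs whose log2 CPM was most like that of miR-29a-3p over the 6 libraries, among those with a mean count of at least 50 outside the family, were miR-338-3p, miR-361-5p, miR-3065-5p, miR-20a-5p and miR-17-5p, with Pearson's r between 0.977 and 0.991. These r values are descriptions over 6 libraries that fall into 2 groups, and they largely follow the difference between the groups. All 5 were lower in RARαS77A cells, with log2 fold changes between -1.28 and -0.56 (adjusted p between 0.000560 and 0.0178, edgeR), against 21.1% of all miRNAs tested. They were chosen by likeness to miR-29a-3p in these same libraries, so their direction and p-values are no separate evidence. miR-338-3p and miR-3065-5p had the same count in 5 of the 6 libraries and differed by 1 count in the other, so their counts could not be told apart. miR-20a-5p and miR-17-5p are products of the miR-17-92 cluster.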

How the data were processed

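Small RNA was sequenced from 3 control and 3 RARαS77A samples of MDA-MB-231 (NEBNext small RNA kit, Illumina). The authors deposited whole-number read counts per miRNA, not normalized, and TPM values. Each deposited TPM equals a count over its column total on the TPM scale, without a length term. The submitters' processing notes name Bowtie; the sources used here do not give its build, mismatches, multi-match handling or read filters.

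Counts were tested with edgeR 4.0.16 in R 4.3.3 (TMM, filterByExpr with a minimum count of 10, glmQLFit, glmQLFTest, Benjamini-Hochberg adjustment over all miRNAs tested). SE is the log2 fold change over the square root of F. Arm ratios were tested in edgeR as the interaction of arm and group with a term per library. Pairs were formed by name. Counts of miR-29 arms lay between 15 and 128371, and the lowest limit precision. Both fits were tested on simulated data. Alternatives used DESeq2 1.42.0, limma 3.58.1, other scalings and filters, a replicate block, and fewer libraries. Loci come from RefSeq (GRCh38.p14) and GENCODE 29.

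The miRNAs named are the 7 arms, others with the same or a shifted seed, up to 4 per target list with the highest mean counts and the 5 most like miR-29a-3p. Only miR-193b-3p was named after its value was seen. Members and lists were chosen with earlier results of these data known. Same-numbered libraries did not deviate together (correlations of 0.0386, 0.0996 and 0.0247), so the main fit has no block.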

Additional observations from a re-analysis of the deposited data

How the results depend on the processing

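miR-29b-1-5p, miR-29b-2-5p and miR-29c-3p kept their direction and call under all 19 alternatives. All of these used the same deposited values, so the uncertainty in assigning reads to miR-29c-3p remains. miR-29a-3p lost its call at an adjusted p under 0.01 and against control replicate 3 alone, and miR-29c-5p under scaling to total counts in edgeR. The number of higher arms went from 1 to 0 under scaling to total counts in edgeR (1 at an unadjusted p under 0.05, and 1 with limma on TPM), and that of lower arms lay between 3 and 6. Without single libraries 1 arm was higher and 4 were lower. Values without a call in the main setting changed sign. miR-29b-3p was at 0.16 under upper quartile scaling and between -0.16 and 0.024 without single libraries, positive without control replicate 1 or RARαS77A replicate 2 (0.022). miR-29a-5p was at -0.47 under total counts, -0.13 with totals that leave out the 5 most abundant miRNAs, -0.081 without a filter, -0.45 and -0.30 with limma on TPM plus 1 and plus 10, and between -0.0098 and 0.17 without single libraries, negative without RARαS77A replicate 1. The cause of these sign changes was not tested. Total counts and TPM have no composition factor, but some of the changes arose with TMM or upper quartile factors.

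Of the arm ratios, those called lower numbered 1 and those called higher 1 against control replicate 3 alone, which leaves 1 control library that is assumed to vary like the others. Without single libraries, between 1 and 2 were lower and 2 higher. The log2 change of miR-29b-1-5p over miR-29b-2-5p ranged from -0.75 to 0.022 without single libraries. On the deposited TPM the summed 3p arms were at -1.09 and the summed 5p arms at -0.20 on the log2 scale, against -0.51 and 0.37 with TMM. The replicate block changed no call of the 7 arms or, with limma on log2 ratios, of the 4 arm pairs, and the numbers do not pair the libraries. Depth limits miR-29b-2-5p most, with 15 counts in its lowest library.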
